A study of Mus musculus with 21 samples.

Results

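The nuclear respiratory chain genes are the genes of the cell nucleus whose symbols mark them as parts of the 5 complexes of oxidative phosphorylation in the inner mitochondrial membrane. They were taken by symbol alone, as every row of the count table named Nduf, Sdh, Uqcr, Cox (numbers 4 to 8) or Atp5 with a summed count of at least 30 over 21 libraries. No measured difference entered this rule, though it was set with earlier results of these data known. Of 45664 gene rows 84 had such a symbol and 83 reached the minimum. Placed by symbol, they comprised 37 genes of complex I, 4 of complex II, 8 of complex III, 17 of complex IV and 17 of complex V. Partners with other symbols, such as Cyc1, Ndufab1 and Usmg5, are outside the rule. The only matching symbol below the minimum was Cox8c, with 0 counts in all libraries. The symbols just inside were Cox7b2 with 111 and Cox6a2 with 242 summed counts. All 83 passed the minimum that was set for every gene tested.

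The tissue was the ventral pons, a block of brainstem with the facial nucleus and parts of neighbouring reticular and trigeminal nuclei, of C57BL/6 mice heterozygous for a green fluorescent protein inserted at the microglial receptor gene (CX3CR1GFP/wt), which all groups carried. The right facial nerve was cut where it leaves the skull at 8 weeks of age, and the right (lesion) and the left (contralateral) pons were collected 7, 14 and 30 days later, when mice were 9, 10 and 12 weeks old. The left pons of unoperated 8-week-old mice served as day 0. Each of the 7 groups had 3 libraries, and the labels do not state whether these came from separate mice, so p-values measure the spread between libraries, which may be technical.

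Complexes I to IV pass electrons from NADH and succinate to oxygen and, except for complex II, pump protons across the inner membrane, and complex V, the ATP synthase, uses the proton gradient to make ATP. Complexes I, III, IV and V combine subunits from nuclear genes with subunits from the mitochondrial genome, whereas complex II is wholly nuclear. Neurons depend heavily on this pathway, and its nuclear genes are known as targets of the transcription factors NRF-1, GABP (NRF-2, an ETS factor) and YY1, which the coactivator PGC-1α (Ppargc1a) works with.

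Since many of these genes carry such sites, the promoters were searched for 3 short motifs on both strands. Of the 83 genes 69 had a RefSeq promoter window (GRCm38.p6, 250 bases before to 50 bases after the start), giving 75 windows, and 14 genes had none in the table used. The NRF-1 core GCATGCGC stood in 10 of these windows, or 13.3%, against 2.71% of all 32851 windows. The ETS letters CCGGAAG stood in 21.3% of the members' windows against 8.86% of all windows, and the YY1 letters AAGATGG in 17.3% against 6.34%. The members' windows averaged 57.5% G and C, against 53.8% in all windows. A match is a description of the letters and not of a bound factor. The 120 bases before the start are shown for 5 genes of complexes I, II and V with the NRF-1 letters and for Atp5e, which had the smallest p of the set between the sides at day 14, with the ETS letters. Capitals mark the matched letters. In Ndufa11 and Atp5k they cover matches on both strands that overlap, and in Atp5e they are the reverse complement.
Ndufa11 (chr17:56717642-56717761, plus strand): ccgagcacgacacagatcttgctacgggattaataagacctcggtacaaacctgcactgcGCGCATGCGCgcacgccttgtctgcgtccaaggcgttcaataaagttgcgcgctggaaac
Atp5k (chr5:108434400-108434519, minus strand): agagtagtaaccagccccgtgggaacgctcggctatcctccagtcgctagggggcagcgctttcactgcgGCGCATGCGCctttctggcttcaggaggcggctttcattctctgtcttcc
Sdhb (chr4:140961151-140961270, plus strand): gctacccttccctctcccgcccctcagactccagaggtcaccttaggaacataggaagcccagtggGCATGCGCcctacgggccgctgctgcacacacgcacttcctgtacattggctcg
Ndufa6 (chr15:82354292-82354411, minus strand): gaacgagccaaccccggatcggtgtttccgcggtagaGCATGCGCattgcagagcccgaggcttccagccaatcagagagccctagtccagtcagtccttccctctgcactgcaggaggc
Ndufa8 (chr2:36049339-36049458, minus strand): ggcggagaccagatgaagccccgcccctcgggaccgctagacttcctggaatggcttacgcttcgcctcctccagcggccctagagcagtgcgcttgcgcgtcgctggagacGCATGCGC
Atp5e (chr2:174464102-174464221, minus strand): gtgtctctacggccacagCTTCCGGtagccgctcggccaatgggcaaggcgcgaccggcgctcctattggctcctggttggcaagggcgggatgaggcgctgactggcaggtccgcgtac

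Libraries held 17358868 to 29827291 counts in the operated groups and 35874913 to 41448945 at day 0. Age changed with the day, and the lane code in the column names was shared by days 0 and 7 and was another one at each of the later days. Under the code of days 0 and 7, the index sequences ACAGTG and GCCAAT each occur at both days. The shared code thus need not mean the same lane of the same run. Days cannot be told apart from age, nor day 0 and the later days from a lane or run of their own. The lesion labels were checked on Sprr1a, an axon injury gene, which reached 35.1 CPM (counts scaled by library size) or more in all 9 lesion libraries and 1.06 CPM or less in all 9 contralateral ones. Microglial markers were called higher on the lesion side for 9, 8 and 7 of 9 genes at days 7, 14 and 30, against 1.56%, 2.58% and 1.04% of all genes. Their summed levels were 633 to 767 CPM in lesion libraries and 369 to 465 CPM in contralateral ones. The neuronal markers summed to 11640 to 14040 CPM in lesion libraries, 12000 to 13680 CPM in contralateral ones and 10760 to 11380 CPM at day 0. In whole tissue, fewer cells of a type and less RNA per cell cannot be told apart.

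Day 7 lesion replicate 2, day 14 lesion replicate 2 and day 0 replicate 2 stood apart from the others of their group, with 78, 68 and 69 of the 83 genes above their own mean over all libraries. Over the 83 genes, the median log2 deviation from that mean was 0.18, 0.16 and 0.18 in these 3 libraries, against -0.09 to 0.02 in the other libraries of their groups. Day 7 contralateral replicates 1 and 2 also had 79 and 73 genes above their own mean, with smaller medians of 0.08 and 0.09. Replicate 3 of that group had 35. Day 14 lesion replicate 2 also had the smallest share of counts from the mitochondrial genome, 2.81%, where the highest library had 7.29%. Results that rest on the 3 replicate 2 libraries named first are given with and without them. Choroid plexus markers (9 genes) summed to 72.8, 59.0 and 4662 CPM in day 7 lesion libraries. At day 14 they summed to 115, 401 and 36.5 CPM in lesion libraries and 141, 80.8 and 985 CPM in contralateral ones. The day 0, day 7 contralateral and day 30 libraries had 18.0 to 107 CPM. The part of this tissue in the members' values was not tested.

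The members' RNA made up 1.33 to 1.64% of the counts of a library. Levels per length (mean CPM per kilobase of exon over 21 libraries) spanned a wide range within each complex. The median level was 72.8 in complex I, 93.8 in complex II, 114 in complex III, 53.7 in complex IV and 58.5 in complex V. In complex I the highest was Ndufa4, a small subunit now placed in complex IV, at 672 CPM per kilobase, followed by the accessory subunit Ndufb9 at 302. The lowest of complex I was Ndufa4l2, an alternative form of Ndufa4, at 4.44, followed by the accessory subunit Ndufb4 at 8.29. Complex II ran from 173 for its flavoprotein Sdha to 43.6 for the membrane anchor Sdhc. Complex III ran from 215 for the small subunit Uqcr10 to 32.9 for Uqcrb, which helps to form the ubiquinone pocket. The 5 complexes thus overlapped widely in level. These levels use the lengths deposited with the counts.

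In the annotation used for positions, exon length was more than 1.5 times longer or shorter for 8 of the 81 genes with a single match. Ndufa4 then came to 239 CPM per kilobase, Ndufb9 to 191, Ndufb4 to 5.06 and Cox6b1 to 433, level with Cox4i1 at 433. Atp5l came to 0.108, below Atp5g2 at 0.405. Over all members Atp5b was then highest, at 447, and the medians of complexes I to V were 70.3, 96.3, 114, 50.6 and 58.5. The order of the highest genes thus depended on the length used, and that of the complex medians did not.

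By the deposited lengths, in complex IV the common isoform Cox6b1 was highest at 607 CPM per kilobase and Cox4i1, the common form of subunit 4, second at 433. The lowest were Cox7b2, a form known from testis, at 0.414 and Cox6a2, the heart and muscle form of subunit 6a, at 0.758. Complex V ran from 447 for the catalytic beta subunit Atp5b and 383 for the alpha subunit Atp5a1 to 1.36 for Atp5l, subunit g, and 0.405 for Atp5g2, which encodes one of the copies of the membrane c-ring subunit. Low levels of some common subunits stood beside sequence that other genes share: 38.3% of the 50-base windows of Atp5g2, 25.4% of Uqcrb, 22.1% of Cox7c and 7.63% of Atp5l also occur in another gene, and in 13 of the genes this share was over 10%. Of the members, 25 overlap an exon on the opposite strand, and how the counting treated strand is not given in the sources used here, so levels of genes with shared or overlapping sequence are uncertain.

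**Figure D1:**
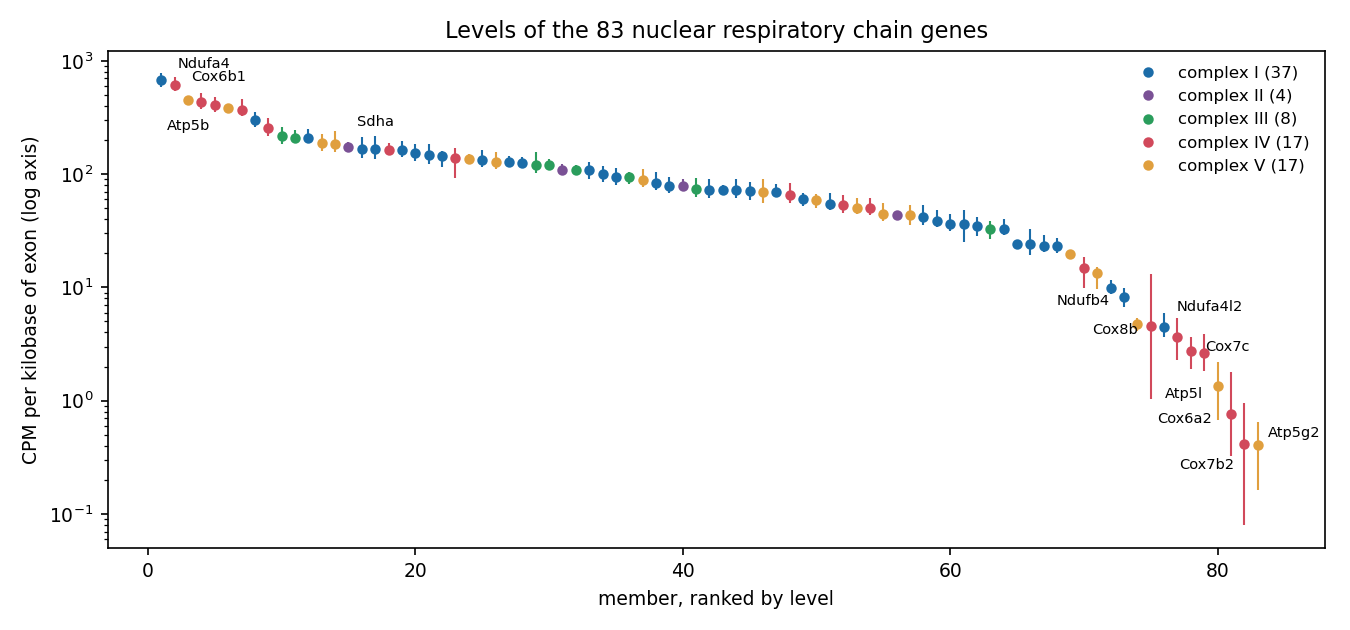
Level of each of the 83 genes (mean CPM per kilobase of exon over 21 libraries, log axis), ranked from highest to lowest and coloured by complex, with lines from the lowest to the highest library. Each point is 1 gene, and the medians of the complexes lie between 53.7 and 114 while single genes run from 0.405 to 672.

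The genes varied together across libraries. Pearson's r between a gene's 21 log2 CPM values and the median profile of the other members had a median of 0.807, and 67 of 83 genes were above 0.5. It was highest for Ndufa13, an accessory subunit of complex I also known as GRIM-19, at 0.97. It was below 0 for 4 genes, lowest for Cox6a2 at -0.434, Atp5s at -0.341 and Cox7c at -0.243. Among 15401 other genes the closest to the median member profile were the proteasome subunit Psmb6 (r 0.965), the coactivator Edf1 (0.937), the trafficking protein Rabac1 (0.936), the complex IV assembly factor Coa3 (0.932) and the GTPase Hras (0.932). These correlations are descriptions, since the values share library depth and scaling.

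**Figure D2:**
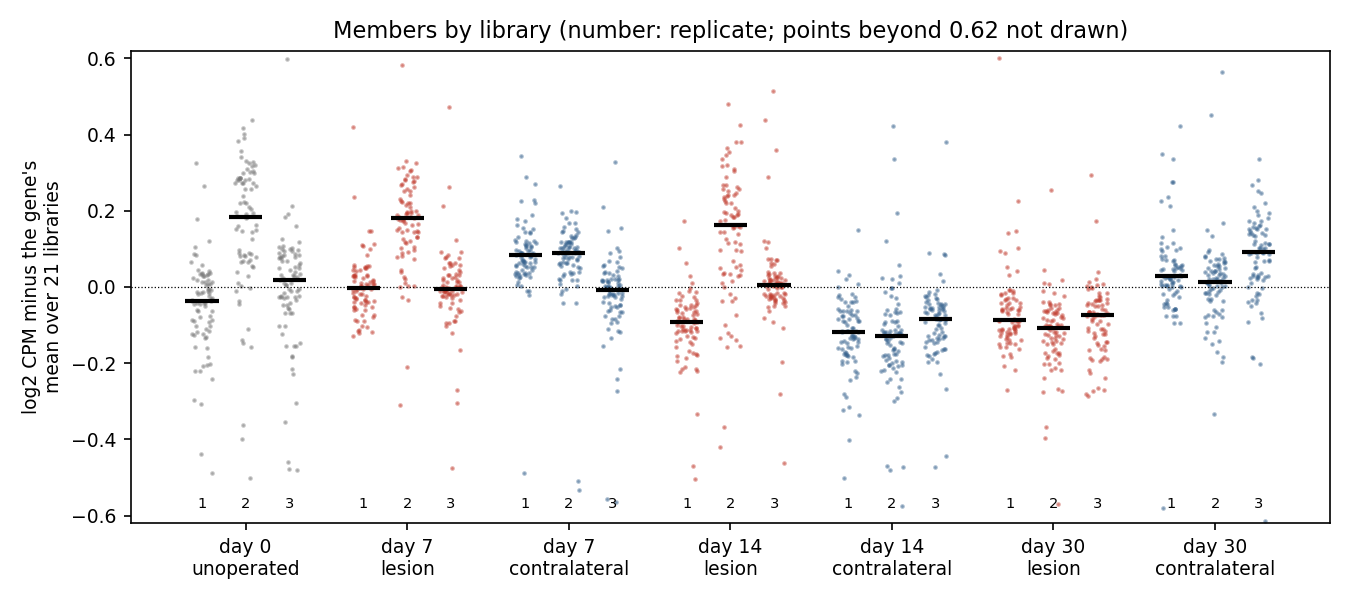
Log2 deviation of each of the 83 genes from its own mean over all libraries (vertical axis) in each of the 21 libraries, with points for genes and a black bar for the median. The medians run from -0.13 to 0.18 and are highest in replicate 2 of the day 7 lesion, day 14 lesion and day 0 groups.

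The first comparison asked whether the respiratory chain genes differed between the injured and the uninjured side of the pons on each day. No gene of the 83 was called on any day by edgeR's quasi-likelihood test with Benjamini-Hochberg adjustment over 22294 genes (adjusted p under 0.05), where 1.65%, 3.88% and 1.16% of all genes were called at days 7, 14 and 30. DESeq2 called 0, 1 (Atp5e) and 0 of them and limma on the deposited log2 values 0 on each day. Some other fits did call genes of the set, among them a fit of only the groups compared at day 30, as given under the processing. At an unadjusted p under 0.05, no gene was higher or lower at day 7, 28 were higher and none lower at day 14, and 1 was higher and 22 lower at day 30. The corresponding shares of all genes were 5.2% and 2.11% at day 7, 9.48% and 8.96% at day 14, and 4.76% and 2.99% at day 30 (higher and lower). Small differences of 1 sign thus ran through the set at the later days without any single gene passing the main test, which did not pair the sides.

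The median log2 difference, lesion minus contralateral, was -0.0016 at day 7, 0.14 at day 14 and -0.14 at day 30, whereas the medians of all genes tested were -0.01, 0.00 and 0.00. It was above 0 for 40, 75 and 4 of the 83 genes, against 47.3%, 50% and 50.7% of all genes. The summed level of the 83 genes was 14500, 16090 and 14350 CPM in the day 7 lesion libraries and 15340, 15360 and 14450 CPM in the day 7 contralateral ones. At day 14 it was 13680, 15770 and 14470 CPM in the lesion libraries, against 13640, 13260 and 13620 CPM in the contralateral ones. At day 30 it was 13500, 13570 and 13730 CPM in the lesion libraries, against 14400, 14690 and 15190 CPM in the contralateral ones. The sides overlapped at day 7, all lesion libraries were above all contralateral ones at day 14, and all were below them at day 30.

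Gene by gene, the 3 lesion libraries were all above the 3 contralateral ones for 0 genes at day 7, 23 at day 14 and 1 at day 30, and all below for 2, 1 and 50. Of all genes, 7.26%, 10.7% and 9.71% were separated upward at days 7, 14 and 30, and 5.26%, 10.5% and 8.28% downward. The 50 genes separated downward at day 30 were 60.2% of the set. All 37 genes of complex I, the 4 of complex II and the 8 of complex III had a log2 difference below 0 at day 30, as had 14 of 17 in complex IV and 16 of 17 in complex V. The median of complex IV was the furthest from 0 on both days, at 0.20 at day 14 and -0.16 at day 30. That of complex II was 0.02 at day 14 and -0.09 at day 30. The differences between complexes were not tested.

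Day 14 depended on single libraries more than day 30. The day 14 median was 0.066 without lesion replicate 2 and 0.209 without lesion replicate 1, and the number of genes with lesion libraries all above contralateral ones was 24 and 56, where the shares of all genes were 14.3% and 18.9%. The day 30 median stayed between -0.148 and -0.104 with any 1 of the libraries left out, and the number separated downward between 51 and 60, against 12.4% to 13.8% of all genes. At day 7 the number of genes with a difference above 0 ran from 9 to 56 over the same exclusions. Without day 7 lesion replicate 2 it was 9, the median was -0.06, and 19 genes were separated downward instead of 2, against 10.3% of all genes. Other genes of similar exon length (758.5 to 2401.5 bases, the middle range of the members) had medians of 0.01, 0.09 and -0.06 at days 7, 14 and 30, over 3543 genes with at least 1 CPM. Longer genes had -0.01, -0.03 and 0.02. Motor neuron markers had medians of -0.68, -0.97 and -0.77 at days 7, 14 and 30, with 1, 4 and 2 of 8 called lower and 0, 1 and 1 higher, and microglial markers of 0.72, 0.75 and 0.56. Astrocyte markers summed to 4674 to 5099 CPM in day 30 lesion libraries and 4194 to 4588 CPM in contralateral ones, without overlap, and 6 of 7 were above 0 and 0 called. Endothelial markers summed to 257 to 279 CPM in day 14 lesion libraries and 286 to 295 CPM in contralateral ones, with 5 of 6 below 0 and 0 called. Pan-neuronal markers summed to 12870 to 13050 CPM in day 7 lesion libraries and 13220 to 13460 CPM in contralateral ones, with 2 of 10 called higher and 1 lower. Muscle markers summed to 4.68 to 5.48 CPM in day 7 lesion libraries and 5.53 to 6.11 CPM in contralateral ones, with 0 of 6 called. Of all genes, 1.56%, 2.58% and 1.04% were called higher between the sides at days 7, 14 and 30, and 0.0942%, 1.31% and 0.121% lower. The part of gene length and of these markers in the members' differences was not tested.

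**Figure D3:**
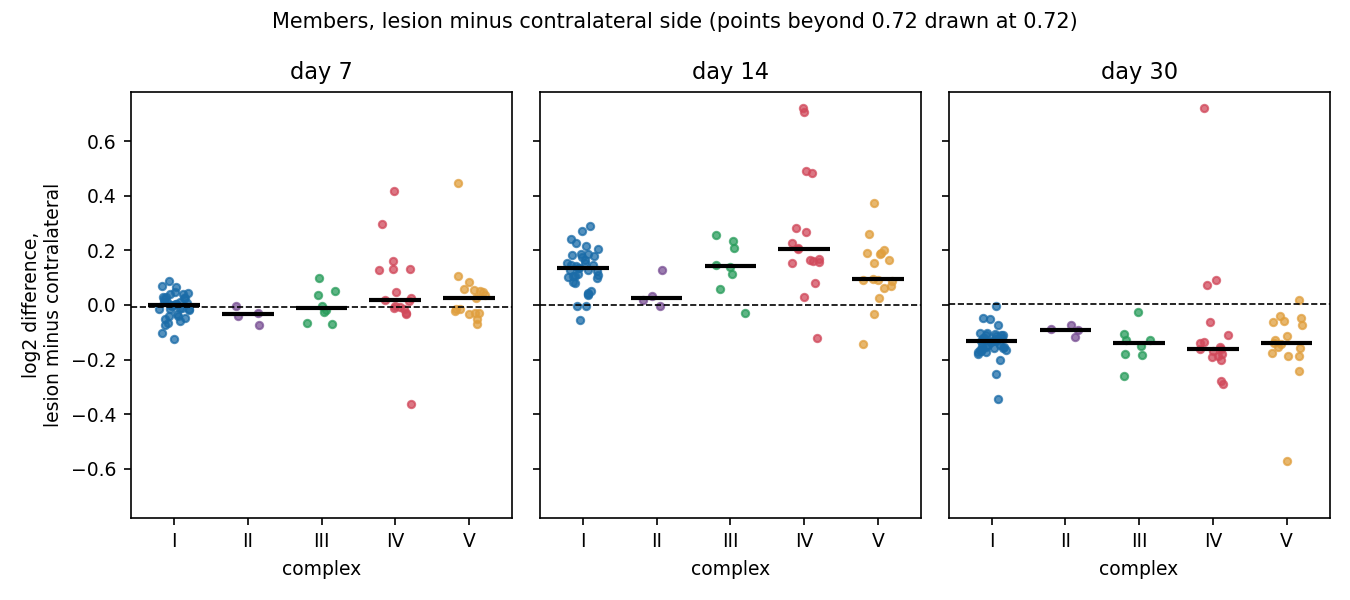
Log2 difference between lesion and contralateral pons (vertical axis) of each gene at days 7, 14 and 30, by complex. Points are genes, bars are medians and the dashed line is the median of all genes tested; at day 30 79 of 83 genes lie below 0.

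Complex I genes made up 14 of the 28 genes at an unadjusted p under 0.05 at day 14 and 10 of the 22 at day 30. This is near their share of the set, 37 of 83. The single genes given here for the sides at days 14 and 30, in all 5 complexes, were chosen after their values were seen, for a small p or separated sides. Ndufs6, an accessory subunit that binds zinc (chr13:73319838-73328542, minus strand, GRCm38), had 42.8, 56.6 and 48.0 CPM in day 14 lesion libraries, against 38.5, 41.7 and 40.8 CPM in contralateral ones. The sides did not overlap, and the log2 difference was 0.29 ± 0.10 (SE; edgeR adjusted p = 0.119). Ndufs5, another accessory subunit (chr4:123712710-123718202, minus strand), had 20.3, 19.2 and 17.2 CPM in day 30 lesion libraries and 24.3, 23.2 and 24.6 CPM in day 30 contralateral ones. All lesion values were below all contralateral ones, with a log2 difference of -0.34 ± 0.09 (SE; edgeR adjusted p = 0.0842), and with the replicate number as a block it was -0.35 and passed the test (edgeR adjusted p = 0.035). Ndufs5 shares 21.7% of its 50-base windows with another gene. Ndufb6, an accessory subunit of the membrane arm (chr4:40270591-40279421, minus strand, opposite 257 exon bases of Smim27), had 51.0, 47.5 and 48.6 CPM in day 30 lesion libraries, against 56.1, 55.8 and 63.4 CPM in contralateral ones, without overlap (-0.25 ± 0.08; edgeR adjusted p = 0.143).

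In complex II, Sdhb, the iron-sulfur subunit with the NRF-1 letters in its promoter, had 167, 193 and 175 CPM in day 14 lesion libraries and 165, 161 and 165 CPM in contralateral ones. At day 30 it had 164, 167 and 163 CPM in lesion libraries and 175, 175 and 185 CPM in contralateral ones. The lesion side was thus wholly above at day 14 and wholly below at day 30, by 0.13 ± 0.07 and -0.12 ± 0.07 on the log2 scale (SE), and neither passed the test (edgeR adjusted p = 0.298 and 0.731). In complex III, Uqcr10 (chr11:4701973-4704342, minus strand) had 124, 146 and 126 CPM in day 14 lesion libraries, against 111, 108 and 118 CPM in contralateral ones. The sides were separated there too, with a log2 difference of 0.23 ± 0.08 (SE; edgeR adjusted p = 0.0909). In complex IV, Cox4i1 had 629, 746 and 660 CPM in day 14 lesion libraries and 593, 588 and 586 CPM in contralateral ones (0.20 ± 0.08, SE; edgeR adjusted p = 0.133). At day 30 the same gene had 589, 629 and 646 CPM in lesion libraries, below the 659, 682 and 713 CPM in contralateral ones.

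In complex V, Atp5e, the epsilon subunit of the central stalk (chr2:174461072-174464105, minus strand), had 114, 158 and 119 CPM in day 14 lesion libraries, against 97.3, 98.9 and 106 CPM in contralateral ones. Its log2 difference of 0.37 ± 0.11 (SE) had an edgeR adjusted p of 0.074, while DESeq2 gave an adjusted p of 0.0175. At day 30 Atp5e had 109, 104 and 117 CPM in lesion libraries and 124, 119 and 131 CPM in contralateral ones. The order of the sides was reversed between the days in this gene and in 17 others, which had all lesion libraries above at day 14 and all below at day 30. These 18 genes were 21.7% of the set, against 1.07% of all genes. They were Atp5d, Atp5f1, Atp5g3 and Atp5o of complex V, Cox4i1, Cox6a1 and Cox7a2l of complex IV, Uqcr10 and Uqcrq of complex III, Sdhb of complex II, and Ndufa4, Ndufa13, Ndufb9, Ndufc1, Ndufs4, Ndufs8 and Ndufv3 of complex I.

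Whether the side difference itself changed between days was tested as an interaction. No gene of the set was called for any pair of days by edgeR, where 0%, 0.0269% and 0.0807% of all genes were called for day 14 minus 7, day 30 minus 7 and day 30 minus 14. DESeq2 called 0, 0 and 5 of the set. With the replicate number as a block, edgeR called 21 of the set lower for day 30 minus day 14, against 1.47% of all genes lower. The same fit called 10 of the set higher between the sides at day 14 (4.3% of all genes) and 1 lower at day 30 (0.265%), and the numbers were taken to pair the sides at days 7 and 30 and not at day 14. For day 30 minus day 14, 52 genes were lower and 0 higher at an unadjusted p under 0.05, against 7.52% and 7.62% of all genes. Of the 52, 25 belonged to complex I, which holds 37 of the 83 genes. The 52 were 62.7% of the set. The median was -0.28 (all genes 0.00), and 77 of 83 genes were below 0, against 49.5% of all genes. It ranged from -0.320 to -0.205 with any 1 library left out. Without day 14 lesion replicate 2, 37 genes were lower at an unadjusted p under 0.05, against 4.75% of all genes. The smallest edgeR adjusted p were 0.163 for Ndufs5 (-0.49 ± 0.13, SE), 0.167 for the c-ring gene Atp5g3 (-0.33 ± 0.10) and 0.167 for Ndufv3, a subunit of the NADH-binding module (-0.38 ± 0.11). Other genes of similar length had a median of -0.15 and longer genes of 0.05 in this contrast, and the part of length was not tested.

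For day 30 minus day 7 the median was -0.13, with 76 genes below 0 (48.9% of all genes) and 7 lower and 0 higher at an unadjusted p under 0.05 (2.66% and 1.65% of all genes). For day 14 minus day 7 it was 0.13, with 77 genes above 0 (50.6% of all genes) and 2 higher and 0 lower (2.33% and 3.59% of all genes). The smallest adjusted p of these contrasts were 0.999 for Ndufs5 (-0.34 ± 0.13, SE; edgeR) and 0.822 for the membrane-arm subunit Ndufb5 (0.26 ± 0.10, SE; edgeR). Without day 14 lesion replicate 2 the day 14 minus day 7 median was 0.063, and without day 7 lesion replicate 2 it was 0.197. The day 30 minus day 7 median was -0.078 without day 7 lesion replicate 2. In that fit 1 gene was lower at an unadjusted p under 0.05 (2.08% of all genes). The 3 contrasts share groups and are not independent.

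Forms of subunits known from particular tissues were measured beside their common partners. Ndufa4l2 had 3.85 to 4.18 CPM in day 14 lesion libraries and 3.87 to 4.11 CPM in contralateral ones, a log2 difference of -0.0053 (edgeR adjusted p = 0.993). Cox4i2, a form of subunit 4 known from lung and low oxygen, had 2.18, 2.83 and 1.77 CPM in day 14 lesion libraries and 1.91, 1.45 and 1.46 CPM in contralateral ones, which overlapped (0.49 ± 0.22, SE; edgeR adjusted p = 0.223). Neither form passed the test on any day.

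Cox6a2 had 0.505, 0.954 and 1.17 CPM in day 30 lesion libraries and 0.289, 0.394 and 0.376 CPM in day 30 contralateral ones. It was the 1 gene with lesion libraries all above at day 30, and the difference of 1.27 ± 0.45 (SE) was not called (edgeR adjusted p = 0.328). It lies opposite the integrin gene Itgad over 70 exon bases, and Itgad had a log2 difference of -0.13 ± 0.45 (SE; edgeR adjusted p = 0.977) in the same comparison. The muscle marker list summed to 3.54 to 4.67 CPM in day 30 lesion libraries and 3.66 to 4.78 CPM in day 30 contralateral ones. Its common partner Cox6a1 had log2 differences of 0.16 at day 14 and -0.18 at day 30.

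Cox7a1 and Cox8b, the heart and muscle forms of subunits 7a and 8, and Cox6b2 and Cox7b2, known from testis, did not pass the test on any day either. Cox8b spread most, with 2.99, 2.90 and 0.979 CPM in day 14 lesion libraries and 1.08, 1.25 and 1.23 CPM in contralateral ones (0.93 ± 0.89, SE; edgeR adjusted p = 0.637). The common partners Ndufa4, Cox4i1, Cox6b1, Cox7a2, Cox7b and Cox8a had log2 differences of 0.03 to 0.20 at day 14 and -0.17 to -0.14 at day 30. The common partners thus lay within a narrow band, and the alternative forms spread over wider values of both signs. Their mean levels differed too, at 193 to 671 CPM for the partners and 0.224 to 5.35 CPM for the alternative forms. Differences at such low levels are imprecise, and the part of level in the wider spread was not tested.

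The second set of comparisons set each operated group against the unoperated pons at day 0. All 6 share the day 0 libraries, so their results are not independent, and the values are given side by side. Day 0 also differed from every operated group in age and may differ in sequencing run, which cannot be told apart from the operation. By edgeR, 5 genes rose and 0 fell in the day 7 lesion pons, where 12.5% of all genes were called, 8.14% higher and 4.32% lower. At day 14, 6 rose and 4 fell in the lesion pons (all genes 16.8%, 9.78% higher and 7.03% lower), and at day 30, 4 rose and 20 fell (22.4%, 12.7% higher and 9.69% lower). In the contralateral pons 3 rose and 0 fell at day 7 (10.5%, 6.84% higher and 3.66% lower), 1 rose and 27 fell at day 14 (15.8%, 9.09% higher and 6.73% lower), and 6 rose and 0 fell at day 30 (16.1%, 9.32% higher and 6.81% lower). The 20 and 27 falls were 24.1% and 32.5% of the set. Where 0 fell, 4, 1 and 5 genes were lower at an unadjusted p under 0.05 in the day 7 lesion, day 7 contralateral and day 30 contralateral pons, against 11.2%, 10.7% and 14% of all genes, and DESeq2 called 0 lower as well.

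Over all 6 comparisons 8 genes were higher in at least 1, 32 lower in at least 1 and 0 higher in one and lower in another. They were 9.64% and 38.6% of the set, against 18.1% and 17.2% of all genes. No complex II gene was called in any of them. The falls in the day 30 lesion pons were in 13 genes of complex I, 2 of III, 1 of IV and 4 of V. Those in the day 14 contralateral pons were in 15 genes of complex I, 2 of III, 5 of IV and 5 of V. The median log2 difference over the 83 genes was -0.01, -0.04 and -0.16 in the lesion pons at days 7, 14 and 30, and -0.01, -0.18 and -0.03 in the contralateral pons, against -0.03 to -0.01 for all genes. Most of the falls were thus in the contralateral pons at day 14 and in the lesion pons at day 30.

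The number of falls depended on single libraries, most on day 0 replicate 2. Without day 0 replicate 2, in which 69 of the 83 genes were above their own mean, 3 genes fell in the day 30 lesion pons and 2 in the day 14 contralateral pons, with medians of -0.084 and -0.091, where 6.51% and 3.41% of all genes fell. Without day 0 replicate 1, 29 and 31 genes fell, against 9.09% and 7.49% of all genes. Without day 0 replicate 3, 17 and 19 fell, against 7.88% and 4.58%. With 1 operated library left out, 7 to 12 fell in the day 30 lesion pons and 9 to 15 in the day 14 contralateral pons. The shares of all genes were then 5.79% to 7.37% and 3.58% to 5.29%. Other genes of similar length had medians of -0.09 in the day 30 lesion and -0.11 in the day 14 contralateral pons. Oligodendrocyte markers summed to 28700 to 30180 CPM in the day 30 lesion and 24420 to 29010 CPM in the day 14 contralateral pons, against 31700 to 33780 CPM at day 0, and 3 and 4 of 7 fell while 0 rose. Astrocyte markers summed to 4674 to 5099 CPM in the day 30 lesion pons, against 4020 to 4435 CPM at day 0, and 1 of 7 rose. Pericyte markers summed to 348 to 366 CPM there, against 382 to 425 CPM at day 0, and 4 of 7 fell. Microglial markers summed to 712 to 735 CPM there and 369 to 406 CPM in the day 14 contralateral pons, against 424 to 441 CPM at day 0, where 8 of 9 rose and 2 of 9 fell. In the day 14 contralateral pons, endothelial markers summed to 286 to 295 CPM, against 300 to 343 CPM at day 0, and 2 of 6 fell and 1 rose. Muscle markers there summed to 3.82 to 4.39 CPM, against 4.58 to 7.69 CPM at day 0, and 1 of 6 fell. Motor neuron markers there summed to 353 to 408 CPM, against 280 to 329 CPM at day 0, with 0 of 8 called. Of the pan-neuronal markers, 3 and 4 of 10 rose in the day 30 lesion and the day 14 contralateral pons and 0 fell. Of all genes, 12.7% rose and 9.69% fell in the day 30 lesion pons, and 9.09% rose and 6.73% fell in the day 14 contralateral pons. The part of length and of these markers in the falls was not tested.

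**Figure D4:**
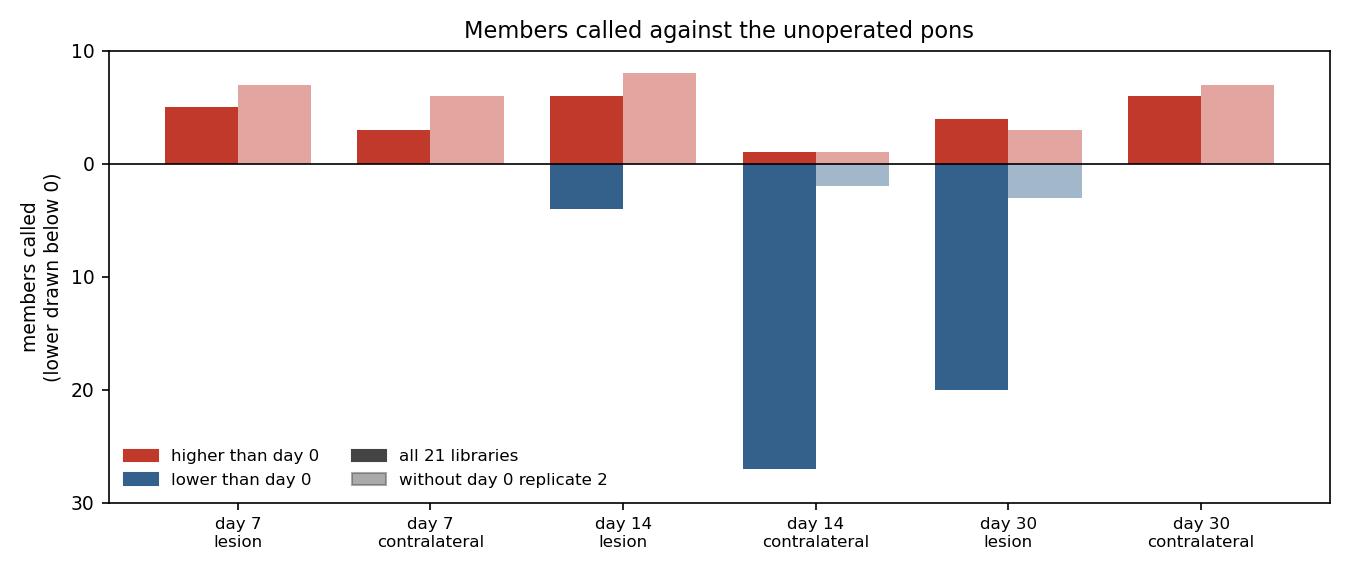
Number of the 83 genes that rose (above 0) or fell (below 0) against day 0 at an edgeR adjusted p under 0.05, by side and day. Full bars use all libraries and faint bars leave out day 0 replicate 2, where the 20 and 27 falls come to 3 and 2.

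Among the falls, Ndufs7, an iron-sulfur core subunit of complex I (chr10:80249121-80256794, plus strand), had 104, 107 and 106 CPM in day 30 lesion libraries and 114, 102 and 107 CPM in day 14 contralateral ones, against 127, 147 and 137 CPM at day 0. Neither group overlapped day 0, and the log2 differences were -0.38 ± 0.07 and -0.35 ± 0.08 (SE; edgeR adjusted p = 0.000566 and 0.00173). These calls held with any 1 library left out. Ndufb6 had 51.0, 47.5 and 48.6 CPM in the day 30 lesion pons, against 59.4, 68.9 and 60.2 CPM at day 0 (-0.36 ± 0.07, SE; edgeR adjusted p = 0.00088), and Ndufa8, an accessory subunit with the NRF-1 letters at its start, had 121, 116 and 112 CPM, against 136, 158 and 135 CPM (-0.30 ± 0.07, SE; edgeR adjusted p = 0.00186). Both of these day 30 calls held with any 1 library left out as well. Ndufb6 also fell in the day 14 contralateral pons (-0.31 ± 0.07, SE; edgeR adjusted p = 0.00418) and the day 14 lesion pons (-0.28; edgeR adjusted p = 0.00989). Without day 0 replicate 2 the adjusted p of these calls were 0.0505 and 0.0812, and the day 14 lesion call was also lost without lesion replicate 1 (0.054).

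Ndufs5 fell in the day 14 contralateral pons by 0.40 ± 0.09 on the log2 scale (SE; edgeR adjusted p = 0.00339) and in the day 30 lesion pons by 0.33 ± 0.09 (edgeR adjusted p = 0.0101), and without day 0 replicate 2 the adjusted p were 0.0579 and 0.131. The day 30 lesion call was also lost without lesion replicate 3 (0.0757). Ndufa1, an accessory subunit, fell in the day 14 contralateral pons by 0.35 ± 0.08 (SE; edgeR adjusted p = 0.00458), and 0.0722 without day 0 replicate 2. In complex V, Atp5j, the coupling factor F6, had 150, 138 and 142 CPM in day 14 contralateral libraries, against 160, 191 and 170 CPM at day 0. All of these were below day 0, and the call held with any 1 library left out (-0.28 ± 0.06, SE; edgeR adjusted p = 0.00352). Atp5o, the subunit that links the stalk to the catalytic head, fell by 0.31 ± 0.08 in the day 30 lesion pons (SE; edgeR adjusted p = 0.00552, and 0.0546 without day 0 replicate 2). In the day 14 lesion pons Atp5j (-0.19) and the accessory subunit Ndufb3 (-0.22) fell at edgeR adjusted p of 0.0409 and 0.045, and each call was lost without any 1 of 4 of the 6 libraries compared. These were day 0 replicates 2 and 3 and day 14 lesion replicates 1 and 2, and the adjusted p reached 0.263 and 0.322 without day 0 replicate 2.

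Among the rises, Atp5s, also named Dmac2l and known as coupling factor B (chr12:69724950-69744660, plus strand), was higher than at day 0 in all 6 groups. Atp5s was the 1 gene of the set called higher in all 6, or 1.2% of the set, against 4.01% of all genes. It had 21.8, 19.7 and 19.5 CPM in the day 7 lesion pons, 20.6, 17.9 and 20.7 CPM at day 14 and 20.1, 19.4 and 22.2 CPM at day 30. The contralateral pons had 19.7, 20.5 and 21.9 CPM at day 7, 21.8, 22.5 and 20.9 CPM at day 14 and 20.7, 20.1 and 22.5 CPM at day 30, and the day 0 pons 14.5, 15.3 and 14.3 CPM. No library of any operated group reached down to the day 0 values. The log2 differences were 0.46, 0.42 and 0.48 on the lesion side (edgeR adjusted p = 0.000148, 0.000357 and 5.3e-05) and 0.49, 0.56 and 0.52 on the contralateral side (edgeR adjusted p = 7.92e-05, 1.02e-05 and 2.7e-05). All 6 calls held with any 1 library left out, and the sides differed by -0.03, -0.14 and -0.04 on the log2 scale (edgeR adjusted p = 1, 0.347 and 0.952).

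Atp5f1, subunit b of the peripheral stalk (chr3:105942698-105960099, minus strand), had 238, 272 and 244 CPM in the day 7 lesion pons and 258, 257 and 246 CPM in the day 7 contralateral pons, against 206, 217 and 216 CPM at day 0. It was above all day 0 libraries on both sides, by 0.24 ± 0.06 and 0.26 ± 0.06 (SE; edgeR adjusted p = 0.00353 and 0.00235). It also rose in the day 14 lesion pons (0.22; edgeR adjusted p = 0.00712) and the day 30 contralateral pons (0.25; edgeR adjusted p = 0.00245), and these 4 calls held with any 1 library left out. Ndufc2, an accessory subunit of complex I, rose by 0.27 and 0.28 in the contralateral pons at days 7 and 30 (edgeR adjusted p = 0.00339 and 0.00165), where both calls held likewise. In the day 7 lesion pons its rise of 0.22 ± 0.06 (SE; edgeR adjusted p = 0.0161) was lost without day 0 replicate 1 (0.125) and without lesion replicate 2 (0.0864). Atp5g1, a c-ring gene, rose by 0.24, 0.24 and 0.22 in the day 7 lesion, day 14 lesion and day 30 contralateral pons (edgeR adjusted p = 0.0262, 0.0227 and 0.0344). Each of these was lost with 3 or 4 of 6 libraries left out in turn. At day 7 they were lesion replicates 2 (0.146) and 3 (0.057) and day 0 replicate 3 (0.109), at day 14 lesion replicates 2 (0.0663) and 3 (0.0838) and day 0 replicate 3 (0.0902), and at day 30 contralateral replicates 2 (0.118) and 3 (0.155) and day 0 replicates 2 (0.0634) and 3 (0.131).

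The remaining rises were in complex IV and in Ndufb4. Cox7c, the subunit VIIc, had 3.44, 3.05 and 4.14 CPM in the day 14 lesion pons and 3.37, 3.09 and 3.74 CPM in the day 30 lesion pons, against 2.48, 2.16 and 2.19 CPM at day 0. Both were above day 0, by 0.64 ± 0.17 and 0.58 ± 0.17 (SE; edgeR adjusted p = 0.00788 and 0.0133), with adjusted p of 0.0703 without day 14 lesion replicate 3 and 0.0679 without day 30 lesion replicate 3, where 0.0528 came without day 0 replicate 2. Cox6b2 had 5.99, 3.91 and 3.65 CPM in the day 30 lesion pons and 3.81, 4.28 and 5.47 CPM in the day 7 lesion pons, against 2.82, 2.51 and 3.20 CPM at day 0. Its rises of 0.69 ± 0.20 and 0.68 ± 0.20 (SE; edgeR adjusted p = 0.0117 and 0.0219) did not overlap day 0, but came to an adjusted p of 0.177 without day 30 lesion replicate 1 and 0.169 without day 7 lesion replicate 3. Without day 0 replicate 2 they were 0.0613 at day 30 and 0.0868 at day 7, and without day 0 replicate 1 0.0565 at day 7. Cox6a2 rose by 1.36 ± 0.42 and 1.51 ± 0.41 in the day 14 and day 30 lesion pons (SE; edgeR adjusted p = 0.0237 and 0.00878) over the 0.248, 0.328 and 0.310 CPM of day 0, and the day 30 call was lost without lesion replicate 3 (0.0679). The day 14 call was lost without lesion replicate 1 (0.142) or 3 (0.0892) or day 0 replicate 1 (0.0719) or 3 (0.053). Ndufb4 rose by 0.35 ± 0.11 in the day 30 contralateral pons (SE; edgeR adjusted p = 0.0334) and lost its call with 5 of 6 libraries left out in turn, which were contralateral replicates 1 (0.0706) and 3 (0.138) and day 0 replicates 1 (0.0602), 2 (0.0618) and 3 (0.0997).

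The 13 subunits encoded in the mitochondrial genome, the partners of these nuclear subunits, followed another course against day 0. Their summed level was 57050, 52590 and 55620 CPM in the day 30 lesion pons and 56210, 57070 and 67340 CPM in the day 30 contralateral pons, against 27100, 26020 and 31310 CPM at day 0. All day 30 libraries were above all day 0 libraries, and 9 genes rose in the lesion pons and 8 in the contralateral pons. Without day 0 replicate 2, 6 and 7 rose. Of all genes, 12.7% and 9.32% rose, and 9.73% and 7.56% without that library. The sum rests on some of the 13 genes. Over 21 libraries mt-Co1 had 5086875 counts, against 22465 for mt-Co3, 17688 for mt-Co2 and 15881 for mt-Atp6. The genes mt-Nd3, mt-Nd4l and mt-Atp8 had 953, 746 and 496. For mt-Co1, the core subunit of complex IV, the rise was 0.90 ± 0.09 and 1.00 ± 0.09 (SE; edgeR adjusted p = 2.46e-07 and 6.53e-08), and for mt-Nd6, a complex I subunit, 1.48 ± 0.12 and 1.64 ± 0.12 (SE; edgeR adjusted p = 6.93e-08 and 2.69e-08). Between the sides, their median log2 difference was -0.24 at day 14 and -0.16 at day 30. In day 14 lesion replicate 2, where the nuclear genes were high, the sum was 23180 CPM, against 39850 and 38780 CPM in lesion replicates 1 and 3 of day 14. Without that library the day 14 median was -0.05, with 4 of 13 above 0 in either case.

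**Figure D5:**
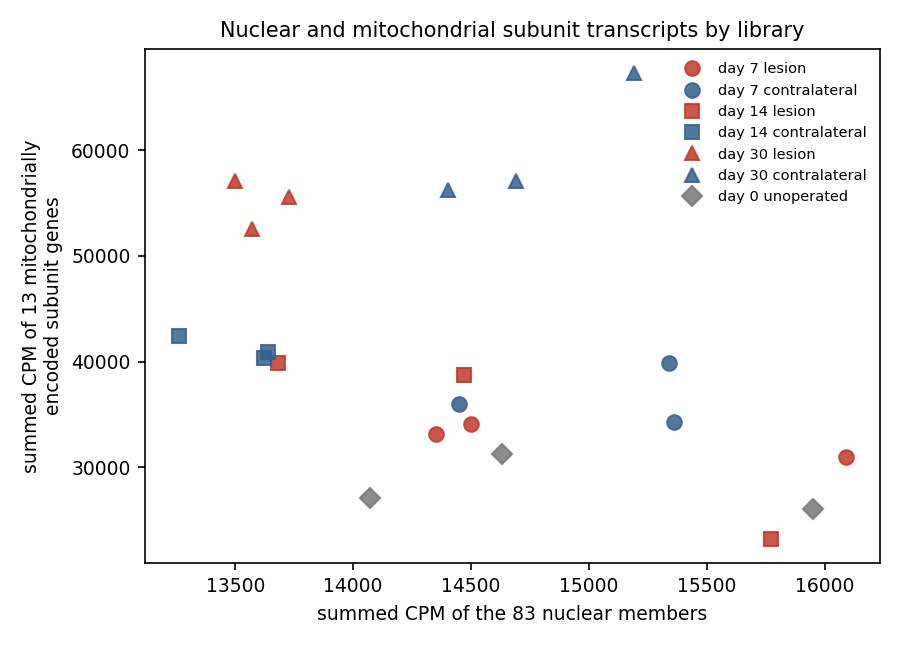
Summed CPM of the 83 nuclear genes (horizontal axis) and of the 13 mitochondrially encoded subunits (vertical axis) in each of the 21 libraries, with a symbol for the day and a colour for the side. Day 30 libraries of both sides lie at 52590 CPM or more of mitochondrially encoded RNA and day 0 libraries at 31310 CPM or less, while the nuclear sums lie between 13260 and 16090 CPM.

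Other genes of the mitochondrion were counted from lists. Between the sides, the 76 mitochondrial ribosomal protein genes had medians of 0.14 at day 14, with 69 above 0, and -0.09 at day 30, with 5 above 0. At day 14, 3 of them were called higher, against 2.58% of all genes. The 3 were Mrpl52 (0.38; edgeR adjusted p = 0.0176), Mrpl28 (0.31; edgeR adjusted p = 0.0243) and Mrps6 (0.28; edgeR adjusted p = 0.0426). Without day 14 lesion replicate 2 the median was 0.06, with 68 above 0, and the 3 had adjusted p of 0.158, 0.227 and 0.23 (edgeR). Each was also lost without contralateral replicate 1 (0.0548, 0.0548 and 0.121) or 2 (0.113, 0.143 and 0.208), Mrpl28 without contralateral replicate 3 (0.0511) and Mrps6 without lesion replicate 3 (0.0756). Assembly factors of complex I had medians of 0.04 and -0.09 at days 14 and 30, those of complexes II to V 0.06 and -0.08, and protein import genes 0.06 and -0.08. The carriers of the inner membrane had 0.06 and -0.06, with the citrate carrier Slc25a1 higher at day 14 (0.43; edgeR adjusted p = 0.00156). The 17 genes of the citric acid cycle and pyruvate entry had medians of 0.03 and -0.04. Of the 17 glycolysis genes, 16 were above 0 at day 14, and Ldha, a subunit of lactate dehydrogenase (0.33; edgeR adjusted p = 0.00766), and Hk2, a hexokinase (0.47; edgeR adjusted p = 0.0233), rose. Hk2 also rose at day 30 (0.66; edgeR adjusted p = 0.00232).

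These day 14 values of the lists were smaller without lesion replicate 2. The medians were then -0.002 for complex I assembly, 0.02 for assembly of complexes II to V, 0.01 for protein import, 0.02 for the carriers and -0.008 for the citric acid cycle. The glycolysis median was 0.04, against 0.10 with all libraries, with 15 of 17 above 0. Slc25a1 and Ldha were still called (edgeR adjusted p = 0.021 and 0.0349), and Hk2 was not (0.0882). The Slc25a1 call held with any 1 library left out, and so did the day 30 call of Hk2. Ldha lost its call without contralateral replicate 2 (0.0911), and the day 14 call of Hk2 was lost as well without lesion replicate 1 (0.0594) or contralateral replicate 2 (0.0931) or 3 (0.0857).

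Against day 0, 15 of the 76 mitochondrial ribosomal protein genes fell and 2 rose in the day 30 lesion pons (9.69% and 12.7% of all genes). In the day 14 contralateral pons 17 fell and 2 rose (6.73% and 9.09% of all genes). Without day 0 replicate 2, 6 and 5 fell (6.51% and 3.41% of all genes). Without day 14 contralateral replicate 2, 7 fell in the day 14 contralateral pons (3.58% of all genes). Mrpl34 had the smallest p of these in both and fell by 0.58 and 0.56 on the log2 scale (edgeR adjusted p = 3.74e-06 and 9.18e-06). Cycs, cytochrome c, which carries electrons between complexes III and IV, had 13.8, 14.4 and 17.8 CPM in the day 30 lesion pons, against 6.74, 6.40 and 8.23 CPM at day 0. It rose in all 6 operated groups, by 0.97 to 1.20 on the log2 scale (edgeR adjusted p = 6.49e-07 at most), and between the sides at day 14 it had a log2 difference of 0.23 (edgeR adjusted p = 0.262). Processed copies of Cycs elsewhere in the genome make its level uncertain. Ppargc1a, which encodes PGC-1α, rose in all 6 too, by 0.40 to 0.58 (edgeR adjusted p = 0.0126 at most), and its largest adjusted p with 1 library left out was 0.0605, in the day 7 lesion pons without lesion replicate 1. A rise in all 6 was called for 4.01% of all genes. The transcription factor gene Nrf1 was 0.26 ± 0.09 higher on the lesion side at day 14 (SE) and was not called (edgeR adjusted p = 0.0996).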

How the data were processed

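Messenger RNA libraries were made with a stranded kit from 300 ng of total RNA and read as 50-base single reads, per the labels. Per the submitters' processing notes and the series' design, the authors' reads came from CASAVA 1.8.2, were aligned to GRCm38.p4 (GENCODE M7) with Rsubread and were counted per gene symbol by featureCounts. The deposited table holds raw counts for 45664 gene rows, and the deposited log2 matrix holds log2 CPM values, which the authors made with limma. All columns were assigned to samples (0 left over). At day 30 the count columns were assigned to sides as the sample descriptions state, on which all day 30 directions rest. Symbols read as dates (27) concern no gene described here.

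As the authors did, 32815 genes with a count were kept if their summed count was above 29 (the 32nd percentile), which left 22294. Genes were tested in edgeR 4.0.16 under R 4.3.3 (TMM, robust quasi-likelihood F-test, 21 libraries, 1 coefficient per group, two-sided), with Benjamini-Hochberg adjustment over all genes in each of 12 comparisons and calls at 0.05. CPM values use TMM-scaled library sizes. The steps were tested on simulated data. Alternatives were DESeq2 1.42.0, its size factors, limma 3.58.1 on the deposited log2 values, no filter, totals without mitochondrial genes, only the groups compared, a replicate block and leaving out each library. Library totals of 17358868 to 41448945 counts leave genes under 1 CPM with few reads, so their differences are imprecise.

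Left and right libraries share replicate numbers. After group means were removed, same-numbered libraries correlated over 15480 genes at 0.164 to 0.267 at day 7 and 0.193 to 0.215 at day 30, and at 0.004 to 0.287 at day 14. Differently numbered libraries had -0.192 to -0.012 at day 7, -0.249 to 0.117 at day 14 and -0.153 to -0.045 at day 30. Over the members alone, same-numbered libraries had 0.614, -0.742 and 0.624 at day 7, 0.278, 0.369 and 0.165 at day 14, and 0.725, 0.118 and -0.29 at day 30. The labels do not say whether equal numbers mark the same mouse. The numbers were taken to pair sides at days 7 and 30 and not at day 14. The main test used no pairs, and the replicate block is given as an alternative.

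The members and lists were chosen with earlier results of these data known. Genes were named by rule (called genes, up to 5 in each direction against day 0 and up to 3 per difference between days by smallest adjusted p, the highest and lowest level per complex, tissue-restricted forms and their partners, up to 3 genes of each other list), and exceptions are stated. A gene that the rule also names is not reported here by name. Lengths for levels per kilobase and for genes of similar length are those deposited in the count table. Positions, shared 50-base windows and the second set of lengths come from a GENCODE annotation of GRCm38, in which Atp5sl was not found and Atp5o matched 2 entries. Promoters come from RefSeq.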

Additional observations from a re-analysis of the deposited data

How the results depend on the processing

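Numbers of respiratory chain genes called, by edgeR unless stated, changed with the processing as follows, and the cause was not tested. Shares of all genes are not given here for the fits with no filter, by DESeq2 or of only the groups compared, so their counts stand without a background. Between the sides at day 14 the count of 0 became 2 with no filter (Uqcr10 and Cox4i1), 1 with DESeq2, 10 with the replicate block and 0 to 18 with 1 library left out, where the 18 came without lesion replicate 1. The 10 and the 18 were all higher, in fits where 4.3% and 4.58% of all genes were called higher. At day 30 it became 1 with no filter (Ndufs5), 1 with the replicate block and 15 when only the groups compared were fitted, and it was 0 to 0 with 1 library left out, as at day 7. The block called 0.265% of all genes lower at day 30. For the side difference at day 30 minus day 14 it became 8 with no filter, 5 with DESeq2, 21 with the replicate block and 0 to 28 with 1 library left out, where the 28 came without day 14 lesion replicate 1. The 21 and the 28 were all lower, in fits where 1.47% and 2.07% of all genes were called lower. The other 2 differences between days stayed at 0 to 0.

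Against day 0, fitting only the groups compared gave 3 and 2 calls instead of 5 and 10 (lesion, days 7 and 14) and 18 instead of 28 (contralateral, day 14), and DESeq2 gave 5 instead of 3 (contralateral, day 7). With 1 library left out the counts were 3 to 7, 5 to 10 and 6 to 33 for the lesion pons and 3 to 6, 3 to 33 and 3 to 7 for the contralateral pons at days 7, 14 and 30. Both counts of 33 came without day 0 replicate 1. In these fits 12% of all genes rose and 9.09% fell in the day 30 lesion pons. In the day 14 contralateral pons 9.82% rose and 7.49% fell. Day 0 numbers pair no mice, and the replicate block by number gave 7, 13 and 30 calls (lesion) and 4, 31 and 9 (contralateral). With this block 8.63%, 10.4% and 13.4% of all genes rose and 5.23%, 8.17% and 10.8% fell in the lesion pons. On the contralateral side 7.4%, 9.77% and 9.93% rose and 4.49%, 7.72% and 7.78% fell.

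The median side difference kept its sign under the alternatives that use all libraries, at 0.135 to 0.151 at day 14 and -0.138 to -0.132 at day 30. Sign changes were followed only for genes named by rule, which between the sides were the tissue-restricted forms. Other members were not followed one by one between the sides. The named differences that changed sign belonged to these low forms, none of them called. The day 7 median of the set also changed sign, from -0.061 without lesion replicate 2 to 0.037 without lesion replicate 1. Ndufa4l2 at day 14 was 0.002 with no filter, Cox7a1 at day 7 was 0.024 with limma and 0.013 with the replicate block, and Cox8b at day 7 was 0.138 with limma. With 1 library left out, Cox4i2 ran from -0.09 to 0.357 at day 7 and -0.187 to 0.062 at day 30, Cox6a2 from -0.106 to 0.759 at day 7, and Cox6b2 from -0.042 to 0.231, -0.296 to 0.037 and -0.202 to 0.2 at days 7, 14 and 30. Cox7a1 ran from -0.223 to 0.166 at day 7, Cox7b2 from -0.507 to 1.394, -0.289 to 1.196 and -0.8 to 0.007 at days 7, 14 and 30, Cox8b from -0.919 to 1.19 at day 7 and -0.978 to 0.157 at day 30, and Ndufa4l2 from -0.04 to 0.017 at day 14 and -0.197 to 0.092 at day 30.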
